A study of Mus musculus with 6 samples.

Results

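The 10 genes described here encode the enzymes of de novo purine synthesis: Ppat, Gart, Pfas, Paics, Adsl and Atic, which build IMP, and Impdh1, Impdh2, Gmps and Adss (also named Adss2), which turn IMP into GMP and AMP. They were chosen by name and found through their NCBI gene numbers among the 24885 rows of the count table. All 10 were matched, and all 10 passed the filter on low counts, which left 10260 genes to test.

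The data are 3′ RNA-seq read counts from mouse Eµ-Myc lymphoma cells, in which a Myc transgene under an immunoglobulin enhancer drives tumours of the B lineage. All cells carried Cre-ERT2, a recombinase that 4-hydroxytamoxifen (4-OHT) switches on, and floxed alleles of the microRNA cluster miR-17~92. The del group (3 libraries) was made by giving such cells 250 nM 4-OHT for 4 days and then subcloning them, and the fl group (3 libraries) kept the floxed cluster. Both groups were grown for 48 hours on feeder cells, irradiated Ink4a-null mouse embryonic fibroblasts. How many subclones stand behind the del libraries, and whether replicates were separate cultures, the labels do not say. The p-values thus measure the spread between these libraries, which may be technical. Deletion, 4-OHT treatment and subcloning cannot be told apart in this design.

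Purine nucleotides supply the bases A and G of DNA and RNA as well as ATP and GTP. Dividing lymphoid cells depend heavily on making them anew, and the pathway is a classical target of lymphocyte-directed drugs, among them the IMP dehydrogenase inhibitor mycophenolic acid. The ring is assembled step by step on phosphoribosyl pyrophosphate (PRPP) from glutamine, glycine, aspartate, bicarbonate and formyl groups carried by folate. MYC is known to bind the promoters of several of these genes and to raise their transcription.

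Some features of the whole data set bear on every value below. Total counts were 2121796 to 3738720 in del libraries and 6554423 to 9580630 in fl libraries, so depth and group go together. The fl libraries were also low in markers of the cell type in their label. The 9 B cell markers examined summed to 657 to 825 CPM in del and to 35.8 to 40.8 CPM in fl (CPM, a read count scaled to a common library size after TMM scaling of the library totals), and all 8 that were tested were higher in del. Ms4a1, which encodes the B cell surface protein CD20, had 1 count over the del group and 2 over the fl group. The 8 myeloid markers summed to 1852 to 1941 CPM in del and 407 to 454 CPM in fl. Most of the fl sums came from Fcer1g, at 371, 380 and 422 CPM in fl and 606, 601 and 591 CPM in del. Of 7 myeloid markers tested, 5 were higher and 2 lower, and Mpo was at 0 in both groups. The 4 epithelial markers, mainly Krt18 and Epcam, with 3 of 3 tested lower, summed to 0.474 to 1.08 CPM in del and 371 to 411 CPM in fl, and Cdh1 was at 0 in both. The 8 fibroblast markers, which feeder cells would carry, summed to 2.90 to 12.8 CPM in del and 0.344 to 3.23 CPM in fl, where Col1a2 alone was tested and was not called, and Lum was at 0 in both. The 6 T and NK cell markers summed to 95.2 to 115.6 CPM in del and 15.2 to 20.5 CPM in fl. Both sums came mostly from Cd2, which was called higher in del. Lck, the other gene tested, was lower, with 0 reads over the del group and 77 over the fl group. Cd3d had 1 read over the del group and 30 over the fl group, and Cd3e and Nkg7 were at 0 in both. The part of these differences in the results on purine genes was not tested. Mir17hg, from whose transcript the microRNAs are cut, was at 167.0, 151.6 and 206.0 CPM in del and 252.0, 262.5 and 262.3 CPM in fl. Its 3′ end lies past the microRNAs, so that a 3′ tag does not check the deletion. Myc was not called, at 452, 422 and 395.5 CPM in del and 454, 417 and 534 CPM in fl.

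Transcripts of 7 of the 10 purine synthesis enzymes fell in del and none rose. The fall covered both IMP dehydrogenases and Gmps, the branch that leads to GMP, as well as Ppat, Gart, Paics and Adsl. Impdh1 fell to 40.7% of its mean in fl, and Pfas, Atic and Adss were not called. The order of the falls depends on the fit. Impdh1 had the lowest log2 fold change as fitted (-1.26). Once the trend of fold changes on transcript length and GC content was removed, Gmps had the lowest (Impdh1 -0.85, Adsl -1.06, Gmps -1.68). That trend was fitted to the del minus fl fold changes themselves, so its removal may also take out real differences. Of all genes tested, 32.6% were called lower, 32.5% higher and 65.1% in either direction (edgeR's quasi-likelihood test, Benjamini-Hochberg adjusted p under 0.05 over all genes). The 7 calls among 10 therefore lie close to the background when direction is ignored, and above it when falls alone are counted. No test was run over the set as a whole. The median log2 fold change (del minus fl) of the 10 members was -0.57, and over all genes tested it was -0.0035. TMM scaling largely fixes the centre of all fold changes, so a fall here is relative to that centre. The members' CPM summed to 1053, 1026 and 1073 in del and to 1399, 1580 and 1550 in fl, so that the summed levels did not overlap. Each library of these groups is a sum of cells, and fewer cells of a type cannot be told apart from less RNA per cell.

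**Figure D1:**
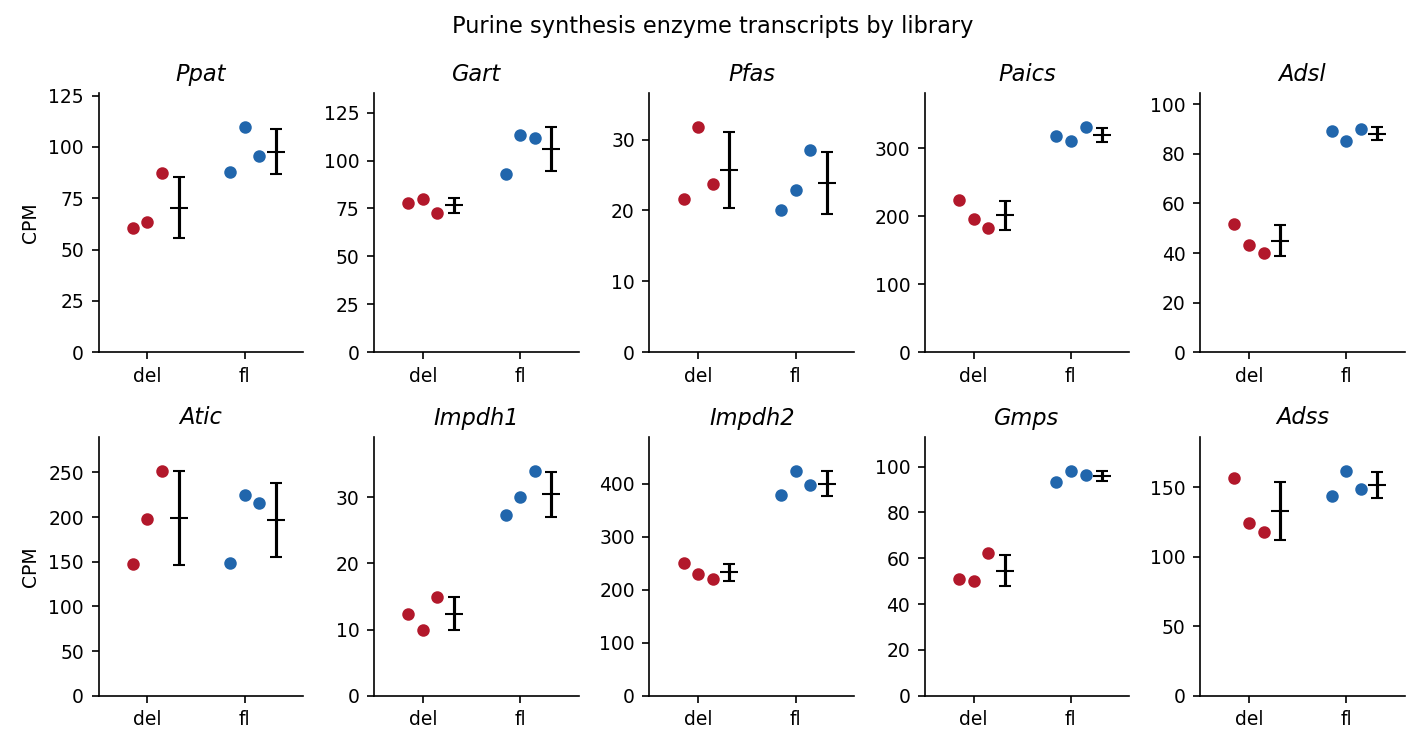
Level of each purine synthesis enzyme transcript in every library, in CPM, del (red) left of fl (blue). Black bars give the mean and SD of 3 libraries. Pfas, Atic and Adss have overlapping groups, while the other 7 genes lie lower in all del libraries than in any fl library.

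The pathway opens with Ppat, the amidotransferase that commits PRPP to purine synthesis and that AMP and GMP inhibit. Ppat (gene number 231327, chr5:76913249-76951578, minus strand, GRCm38 as in all coordinates here) was at 60.3, 63.5 and 87.3 CPM in del and 87.9, 109.6 and 95.3 CPM in fl. The third del library came within 1 CPM of the lowest fl library, and the groups did not overlap. Its log2 fold change was -0.47 ± 0.17 (standard error, adjusted p = 0.0388, edgeR), the weakest of the 7 calls. The call was lost with library totals alone as the scale (adjusted p = 0.0642), in libraries thinned to equal depth (0.127) and without del replicate 1 (0.130), del replicate 2 (0.107), fl replicate 2 (0.144) or fl replicate 3 (0.0773), and the log2 fold change was -0.75 after removal of the length and GC trend.

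Gart encodes a single protein with GAR synthetase, GAR formyltransferase and AIR synthetase activity, and so carries out several of the early steps. Gart (14450, chr16:91621186-91646952, minus strand) was at 77.7, 80.1 and 72.4 CPM in del and 92.99, 113.5 and 111.7 CPM in fl. All del libraries were lower than any fl library, and the log2 fold change was -0.47 ± 0.14 (adjusted p = 0.0139, edgeR). Without fl replicate 2 the adjusted p was 0.0580. A shorter Gart mRNA is known that ends at an internal polyadenylation site and encodes GAR synthetase alone, and counts per gene do not separate it. The antisense gene Gm15964 covers the annotated 3′ end of Gart. The libraries are strand-specific, and no source at hand states whether strand was used in counting.

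Pfas, which uses glutamine to make the amidine FGAM, was not called. Pfas (237823, chr11:68985697-69008460, minus strand) was at 21.6, 31.7 and 23.8 CPM in del and 20.1, 22.8 and 28.6 CPM in fl. The groups overlapped throughout, with a log2 fold change of 0.09 ± 0.19 (adjusted p = 0.704, edgeR). The values rest on 67 to 88 reads per del library and 175 to 204 per fl library. With this spread between libraries a modest change could have gone undetected.

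Paics, which carries AIR carboxylase and SAICAR synthase on a single protein, showed tighter groups. Paics (67054, chr5:76951307-76967509, plus strand) was at 224, 197 and 183 CPM in del and 317, 310 and 331 CPM in fl. The highest del library stood well below the lowest fl library, with a log2 fold change of -0.67 ± 0.14 (adjusted p = 0.00216, edgeR).

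Ppat and Paics are neighbours transcribed in opposite directions, and their annotated 5′ ends share 272 bases, while their 3′ ends, where reads were primed, lie at the far sides of the locus. Their promoter windows (250 bases before to 50 bases after the RefSeq start, GRCm38.p6, each on the strand of its gene) are printed since both genes fell and adjoin. Capitals mark CACGTG, the E-box letters that MYC-MAX dimers prefer.
Ppat, chr5:76951529-76951828, minus strand: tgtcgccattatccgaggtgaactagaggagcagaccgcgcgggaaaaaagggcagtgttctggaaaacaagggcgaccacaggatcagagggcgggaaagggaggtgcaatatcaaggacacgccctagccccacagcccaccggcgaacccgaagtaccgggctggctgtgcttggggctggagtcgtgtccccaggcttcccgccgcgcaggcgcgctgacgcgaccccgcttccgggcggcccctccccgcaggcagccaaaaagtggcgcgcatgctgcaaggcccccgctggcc
Paics, chr5:76951052-76951351, plus strand: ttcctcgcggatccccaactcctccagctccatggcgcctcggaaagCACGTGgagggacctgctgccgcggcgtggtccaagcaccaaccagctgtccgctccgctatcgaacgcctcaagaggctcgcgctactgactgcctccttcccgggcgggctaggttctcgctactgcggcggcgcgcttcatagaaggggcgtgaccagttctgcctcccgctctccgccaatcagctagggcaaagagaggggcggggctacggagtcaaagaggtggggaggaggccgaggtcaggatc
The Paics window held 1 such hexamer, 203 bases before the start, and the Ppat window held none. The Paics window and its hexamer lie within the annotated Ppat gene, and the bases between the windows were not searched. In read counts within a library, which no scaling touches, Paics per Ppat was 3.72, 3.10 and 2.10 in del and 3.61, 2.83 and 3.47 in fl. The ratios overlapped and the difference was not called (log2 difference -0.19, two-sided exact permutation p = 0.7, adjusted over 2 ratios tested 0.7, where 3 against 3 libraries can give no p below 0.1). The difference came from del replicate 3, and without that library it was 0.047. After removal of the length and GC trend the fold changes stood the other way round, at -0.50 for Paics and -0.75 for Ppat.

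Adsl acts at 2 places, releasing fumarate from SAICAR on the way to IMP and from adenylosuccinate on the way to AMP. Adsl (11564, chr15:80948490-80970946, plus strand) was at 51.9, 43.1 and 40.0 CPM in del and 89.4, 85.2 and 89.9 CPM in fl. The del mean was 51.0% of the fl mean, with no overlap and a log2 fold change of -0.97 ± 0.14 (adjusted p = 0.000285, edgeR). The annotation places a processed pseudogene, Gm6612, inside the gene on the same strand, away from its 3′ end.

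Atic, whose protein adds the last formyl group and closes the ring to give IMP, varied more within the groups than between them. Atic (108147, chr1:71557150-71579631, plus strand) was at 147, 198 and 252 CPM in del and 149, 224 and 216 CPM in fl. The libraries numbered 1 were the lowest of each group. The means were 199 ± 52.4 CPM in del and 196 ± 41.6 CPM in fl (SD, n = 3 each), with a log2 fold change of 0.02 ± 0.23 (adjusted p = 0.945, edgeR). This was the widest standard error among the 10 members, on 418 to 2005 reads per library.

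All 3 genes of the branch from IMP to GMP fell. IMP dehydrogenase, which oxidises IMP to XMP and limits the rate of guanine nucleotide synthesis, comes as isoenzymes encoded by Impdh1 and Impdh2, of which Impdh2 is the form known to dominate in proliferating cells. Impdh1 (23917, chr6:29200434-29216364, minus strand) was at 12.4, 9.95 and 14.9 CPM in del and 27.3, 30.0 and 34.0 CPM in fl. Its highest del value was far below its lowest fl value, and the log2 fold change was -1.26 ± 0.18 (adjusted p = 0.000227, edgeR). The del values rest on 47, 21 and 55 reads.

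Impdh2 (23918, chr9:108560286-108565584, plus strand) was at 250, 229 and 220 CPM in del and 378, 425 and 398 CPM in fl. The del mean was 58.2% of the fl mean with no overlap, and the log2 fold change was -0.78 ± 0.13 (adjusted p = 0.000753, edgeR). The call was lost once the length and GC trend was removed (log2 fold change -0.31, adjusted p = 0.0770). Ndufaf3 overlaps the 3′ end of Impdh2 by 48 bases on the other strand, and a processed copy of Impdh2 is annotated on chromosome 8. No source at hand states how reads that match more than 1 gene were handled, so this level is uncertain.

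Read by read, Impdh1 per Impdh2 was 0.0495, 0.0435 and 0.0677 in del and 0.0722, 0.0706 and 0.0855 in fl. Every del ratio was below every fl ratio, and the log2 difference was -0.53. With 3 against 3 libraries the two-sided exact permutation p was 0.1, the smallest possible (0.2 adjusted over 2 ratios tested), so this difference could not pass the threshold. The nearest values, 0.0677 in del and 0.0706 in fl, lie close together.

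Gmps, the amidotransferase that turns XMP into GMP with glutamine, fell by an amount near that of Impdh2. Gmps (229363, chr3:63976106-64022579, plus strand) was at 51.1, 50.2 and 62.4 CPM in del and 93.4, 98.0 and 96.2 CPM in fl. The fl libraries agreed closely, the del libraries stood well below them, and the log2 fold change was -0.81 ± 0.14 (adjusted p = 0.000689, edgeR). Its longest annotated transcript has 8105 bases, and removing the trend on length and GC moved the log2 fold change to -1.68 (adjusted p = 1.16e-05).

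On the branch to AMP, which Adsl also serves, Adss was not called. It encodes the adenylosuccinate synthase of most tissues, which joins aspartate to IMP at the cost of GTP. Adss (11566, chr1:177762962-177796511, minus strand) was at 156.7, 124.1 and 117.6 CPM in del and 143.8, 162.0 and 149.1 CPM in fl. The groups overlapped through del replicate 1, which was above 2 of the fl libraries, and the log2 fold change was -0.19 ± 0.15 (adjusted p = 0.290, edgeR). Adssl1, which encodes the muscle-type isoenzyme, was at 14.4 ± 5.46 CPM in del and 15.9 ± 1.79 CPM in fl (SD, n = 3 each, adjusted p = 0.686, edgeR).

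To set an enzyme of each branch side by side, read counts of Impdh2 per Adss were taken within each library. The pair was chosen after the values were seen and was therefore not tested. It leaves out Adsl, which also acts on the way to AMP and fell at a log2 fold change of -0.97. The ratio was 1.597, 1.84 and 1.87 in del and 2.63, 2.62 and 2.67 in fl. The fl ratios were almost equal, and all del ratios lay below them. The gap between these genes was small after removal of the length and GC trend, at log2 fold changes of -0.31 for Impdh2 and -0.25 for Adss.

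**Figure D2:**
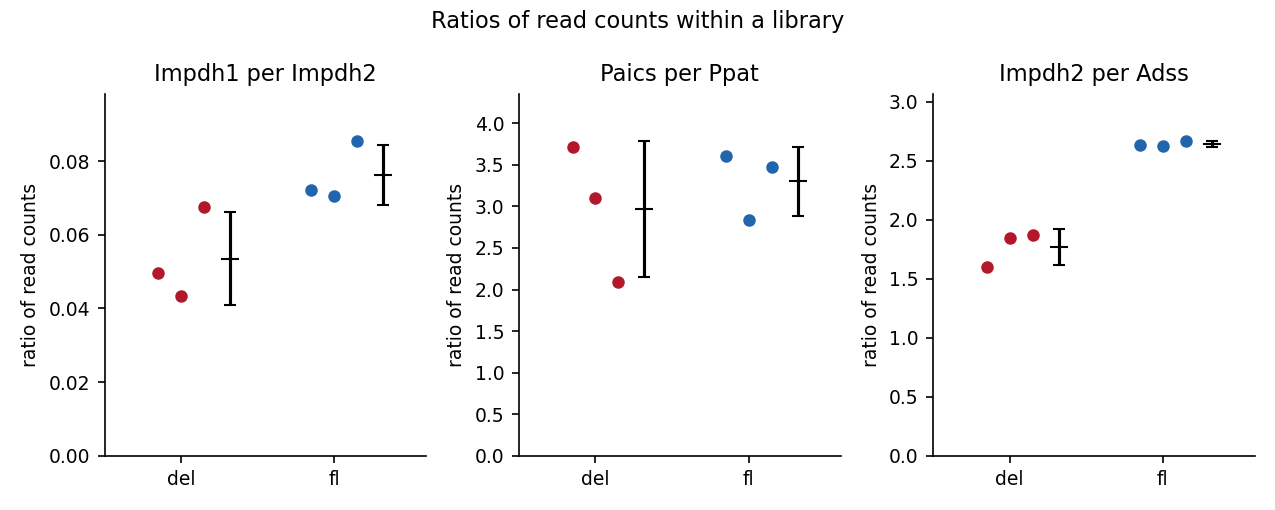
Ratios of read counts within each library for Impdh1 per Impdh2, Paics per Ppat and Impdh2 per Adss, del (red) left of fl (blue), with black bars for the mean and SD of 3 libraries. Only Paics per Ppat overlaps between the groups among the 3 ratios shown; Impdh2 per Adss is 1.597 to 1.87 in del and 2.62 to 2.67 in fl.

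Among all genes tested, the falls were of ordinary size. Impdh1 lay lowest, with 10.5% of tested genes at a lower log2 fold change, followed by Adsl with 16.6%, and Ppat and Gart both had 32.7% of genes below them. Genes called lower by at least 2-fold made up 15.9% of those tested, and of the members Impdh1 alone was in that range as fitted. The groups did not overlap for 7 of 10 members, all lower in del, where 35.7% of all tested genes were lower without overlap, 34.2% higher and 69.9% either.

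**Figure D3:**
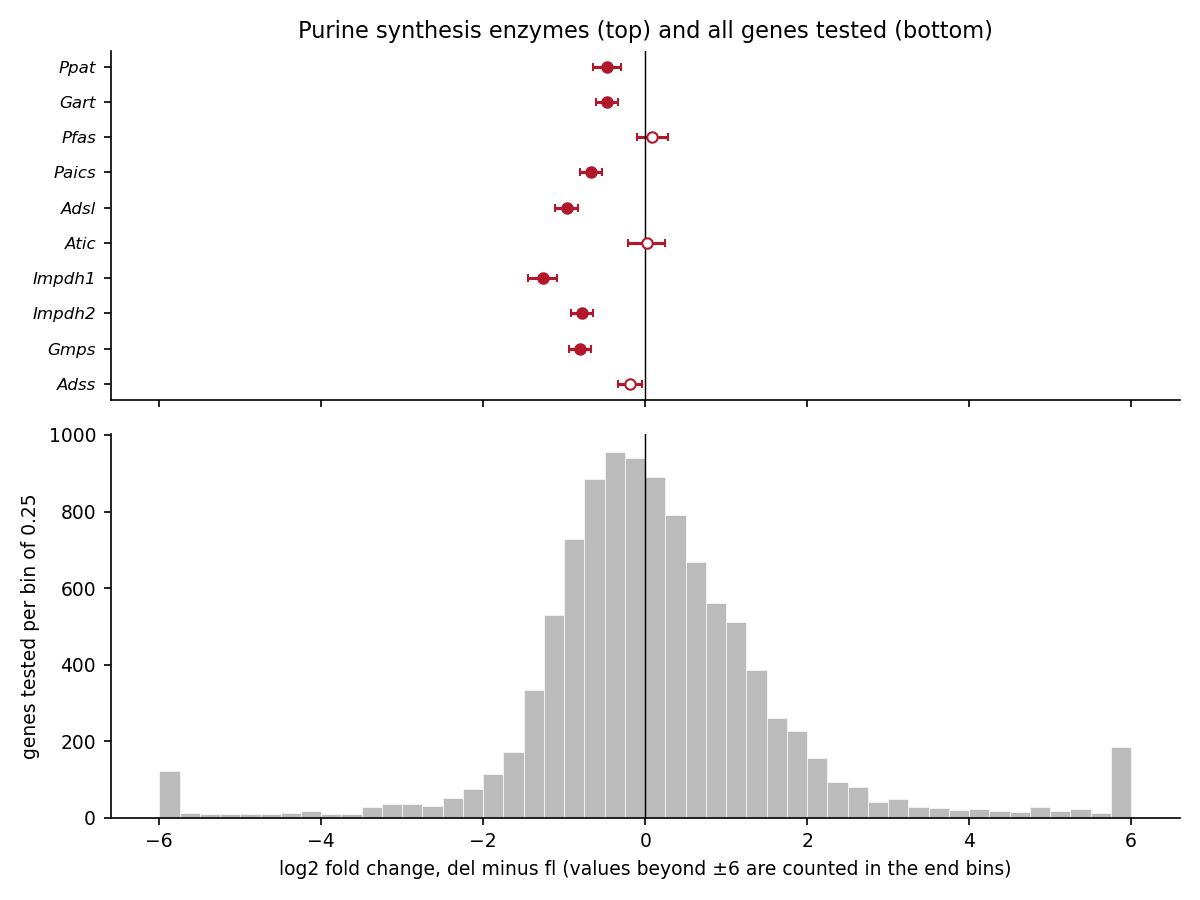
Log2 fold changes (del minus fl) of the 10 enzymes with standard errors (top; filled, adjusted p under 0.05) above the histogram of all 10260 genes tested (bottom). The members lie between -1.26 and 0.09, within the bulk of the histogram, on and to the left of its centre.

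The promoters of other members were searched for the same letters. Windows were found for 9 members, 10 windows in all since Impdh1 has 2, and Pfas was not matched. CACGTG, which reads alike on both strands, was in 3 of these 10 windows, against 10.5% of the 10585 windows of tested genes and 7.15% of all 32851 windows. Beside Paics they belong to Impdh2 and Atic, printed here because Impdh2 fell and Atic was not called.
Impdh2, chr9:108560186-108560485, plus strand: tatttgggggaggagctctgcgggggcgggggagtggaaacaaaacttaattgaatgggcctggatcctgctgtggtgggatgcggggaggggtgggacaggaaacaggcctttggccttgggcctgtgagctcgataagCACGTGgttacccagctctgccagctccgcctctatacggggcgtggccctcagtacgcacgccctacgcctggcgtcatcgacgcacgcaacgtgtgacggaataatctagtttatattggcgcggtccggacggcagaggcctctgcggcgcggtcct
Atic, chr1:71556906-71557205, plus strand: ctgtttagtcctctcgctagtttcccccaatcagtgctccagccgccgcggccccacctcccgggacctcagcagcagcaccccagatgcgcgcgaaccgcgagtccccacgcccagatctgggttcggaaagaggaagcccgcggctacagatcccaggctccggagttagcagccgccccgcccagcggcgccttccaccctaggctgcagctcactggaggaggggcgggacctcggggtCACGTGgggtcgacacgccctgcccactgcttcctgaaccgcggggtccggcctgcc
The hexamer starts 110 bases before the Impdh2 start and 7 bases before the Atic start. A match gives letters and not binding, and no match says nothing of the factor.

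Sites for the deleted microRNAs were looked for in the longest annotated 3′ UTR of each member (GENCODE M21, GRCm38). The mature microRNAs of the cluster (RefSeq, GRCm38.p6, chromosome 14, plus strand) fall into 4 families by their seed, bases 2 to 8, shown in capitals.
mmu-miR-17-5p: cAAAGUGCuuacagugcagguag
mmu-miR-20a-5p: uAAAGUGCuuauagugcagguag
mmu-miR-18a-5p: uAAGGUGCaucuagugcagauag
mmu-miR-19a-3p: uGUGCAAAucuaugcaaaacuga
mmu-miR-19b-3p: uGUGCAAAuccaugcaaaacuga
mmu-miR-92a-3p: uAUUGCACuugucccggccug
The matching 7-base sites are GCACTTT for miR-17-5p and miR-20a-5p, GCACCTT for miR-18a-5p, TTTGCAC for miR-19a-3p and miR-19b-3p, and GTGCAAT for miR-92a-3p. At least 1 site was in the UTR of 4 of 10 members, against 35.7% of 9850 tested genes with a UTR of at least 50 bases. The sites are shown in capitals with their flanks.
Impdh1, UTR base 92: gtggtccatagaTTTGCACtacgggttccc
Impdh1, UTR base 689: gaaggctttaacTTTGCACactttggggtc
Adss, UTR base 355: agttaatgcaatTTTGCACaaatattttta
Gart, UTR base 598: gattgcgcagctGTGCAATaagcatgattc
Gmps, UTR base 4292: aacttaggaactGTGCAATttggttattag
Gmps, UTR base 5174: ccagtaactgatGTGCAATcatttttcttc
Impdh1 and Adss held the miR-19 site, which 14.1% of tested genes had, and Gart and Gmps the miR-92a site, which 7.99% had. Of these 4, Gart, Gmps and Impdh1 fell and Adss was not called, where 32.6% of all genes tested were called lower and 32.5% higher. Whether the sites bear on these levels was not tested. A site is a match of letters in the longest annotated UTR, which need not be the one expressed in these cells.

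Genes that feed the pathway were examined next. Of 4 genes of PRPP supply 3 fell and none rose (median log2 fold change -0.81), where 32.6% of all genes tested were called lower. Prps1, a PRPP synthetase, was at 59.3, 60.6 and 47.6 CPM in del and 137.4, 134.2 and 154.5 CPM in fl (log2 fold change -1.35 ± 0.15, adjusted p = 5.29e-05, edgeR). The other synthetase, Prps2, was at 55.3 ± 7.59 CPM in del and 63.4 ± 13.0 CPM in fl (SD, n = 3 each) and was not called (adjusted p = 0.351). The associated proteins Prpsap1 and Prpsap2 fell, with log2 fold changes of -0.62 and -1.001. Prpsap1 was at -0.063 and no longer called after removal of the length and GC trend (adjusted p = 0.770).

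Formyl groups reach Gart and Atic on 10-formyl tetrahydrofolate. Of 9 genes of this supply 7 were tested, of which 4 fell and 1 rose (median -0.67). Over all genes tested, 32.6% were called lower and 32.5% higher. Mthfd1, the cytosolic enzyme that makes the formyl carrier, was at 65.7 ± 9.16 CPM in del and 105 ± 11.2 CPM in fl (SD, n = 3 each), a log2 fold change of -0.67 ± 0.15 (adjusted p = 0.00377, edgeR). Shmt2 and Shmt1, the serine hydroxymethyltransferases of mitochondria and cytosol, fell, with log2 fold changes of -0.79 and -0.67. Mthfd2, a mitochondrial folate enzyme, fell at -0.55, and Mthfd1l was at -0.09 (adjusted p = 0.611). Removing the length and GC trend ended the calls of Shmt2 (-0.33, adjusted p = 0.0810) and Mthfd2 (-0.22, 0.318), and the call of Mthfd2 was also lost without del replicate 3 (0.0633) or fl replicate 1 (0.0579). Mthfs, not called as fitted (-0.84, adjusted p = 0.0735), was called lower with that trend removed (-1.16, 0.0184) and with upper-quartile scaling (-0.96, 0.0411). Its values rest on 12 reads over the del group and 55 over the fl group, and Gm29094 overlaps it on the same strand. Aldh1l1, which uses up the formyl carrier, rose, at 3.55, on 25 reads over the del group and 5 over the fl group. Mthfd2l and Aldh1l2 had no count in either group.

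The nitrogen donors moved both ways. Glul, glutamine synthetase, was at 67.4, 85.7 and 80.8 CPM in del and 36.5, 42.7 and 36.8 CPM in fl, and rose (log2 fold change 1.01 ± 0.15, adjusted p = 0.000263, edgeR). Got1, the cytosolic aspartate transaminase, fell at a log2 fold change of -1.70, with 41.1 ± 2.18 CPM in del and 134 ± 10.1 CPM in fl. Got2, its mitochondrial counterpart, fell at -1.31.

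Salvage genes, which recycle preformed bases and nucleosides, fell in 4 of 5 cases and none rose (median -0.50). The share called lower over all genes tested was 32.6%. Aprt, which returns adenine to AMP, was at 125.1, 130.7 and 101.6 CPM in del and 426.1, 502.8 and 496.4 CPM in fl. That is a log2 fold change of -1.997 ± 0.16 (adjusted p = 8.48e-06, edgeR). After removal of the length and GC trend it was -0.88 (adjusted p = 0.00101). The antisense gene Gm20388 overlaps Aprt over 2275 bases, so that this level shares the doubt on strand. Adk, adenosine kinase, fell at a log2 fold change of -1.44 and Hprt, which salvages hypoxanthine and guanine, at -0.50 (-0.096 with the length and GC trend removed, adjusted p = 0.547). Pnp, a nucleoside phosphorylase with a near copy, Pnp2, beside it, fell at -0.38, an uncertain level for that reason, and the call was lost when any library except del replicate 2 was left out. Mtap stood at 0.27 (adjusted p = 0.0898).

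Breakdown and interconversion showed no common direction: of 11 genes 9 were tested, 3 rose and 2 fell (median 0.22). Over all genes tested, 32.5% were called higher and 32.6% lower. Nt5e, the surface 5′-nucleotidase CD73, was at 88.5, 94.3 and 65.4 CPM in del and 25.9, 14.4 and 12.0 CPM in fl (log2 fold change 2.23 ± 0.28, adjusted p = 0.000151, edgeR). Ada, adenosine deaminase, rose at a low level, with 4.08 ± 1.03 CPM in del and 0.562 ± 0.116 CPM in fl (SD, n = 3 each). Gmpr, a GMP reductase that leads back to IMP, rose at 0.88 (0.46 in thinned libraries, adjusted p = 0.330, and 1.599 after removal of the length and GC trend), whereas its paralog Gmpr2 fell at -0.40 (-0.063 after that removal, adjusted p = 0.707). The Gmpr2 call was also lost with library totals alone, with DESeq2, and when any library except del replicate 1 was left out. Atxn1 overlaps Gmpr over 4046 bases and Tinf2 overlaps Gmpr2 over 4512 bases, both on the other strand. The levels of Gmpr and Gmpr2 thus share the doubt on strand. Nt5c2, a cytosolic nucleotidase that prefers IMP and GMP, fell at -0.43. Its call was lost with library totals alone (adjusted p = 0.0673) and without del replicate 2 (0.0612), del replicate 3 (0.0640) or fl replicate 3 (0.0836), and its value was -1.04 with the length and GC trend removed. Nt5c and Xdh were not called as fitted (0.22 and -0.28). Removal of that trend put Nt5c at 1.34 (adjusted p = 5.21e-05) and Xdh at -0.84 (0.0213), both past the threshold.

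The kinases that raise AMP and GMP to the di- and triphosphates fell in 4 of the 4 tested of 5 listed (median -1.14). The share called lower over all genes tested was 32.6%. Guk1, guanylate kinase, was at 28.8 ± 6.62 CPM in del and 72.4 ± 7.56 CPM in fl (SD, n = 3 each, log2 fold change -1.35 ± 0.18, adjusted p = 0.000166, edgeR). Nme1 and Nme2, nucleoside diphosphate kinases, fell at log2 fold changes of -0.995 and -1.28. Nme1 and Nme2 overlap an annotated readthrough gene and Ak6 shares its locus with Taf9, so that their counts are uncertain. With the length and GC trend removed, Guk1 (-0.38, adjusted p = 0.0924), Nme2 (-0.29, 0.103) and Ak6 (-0.16, 0.344) were no longer called.

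**Figure D4:**
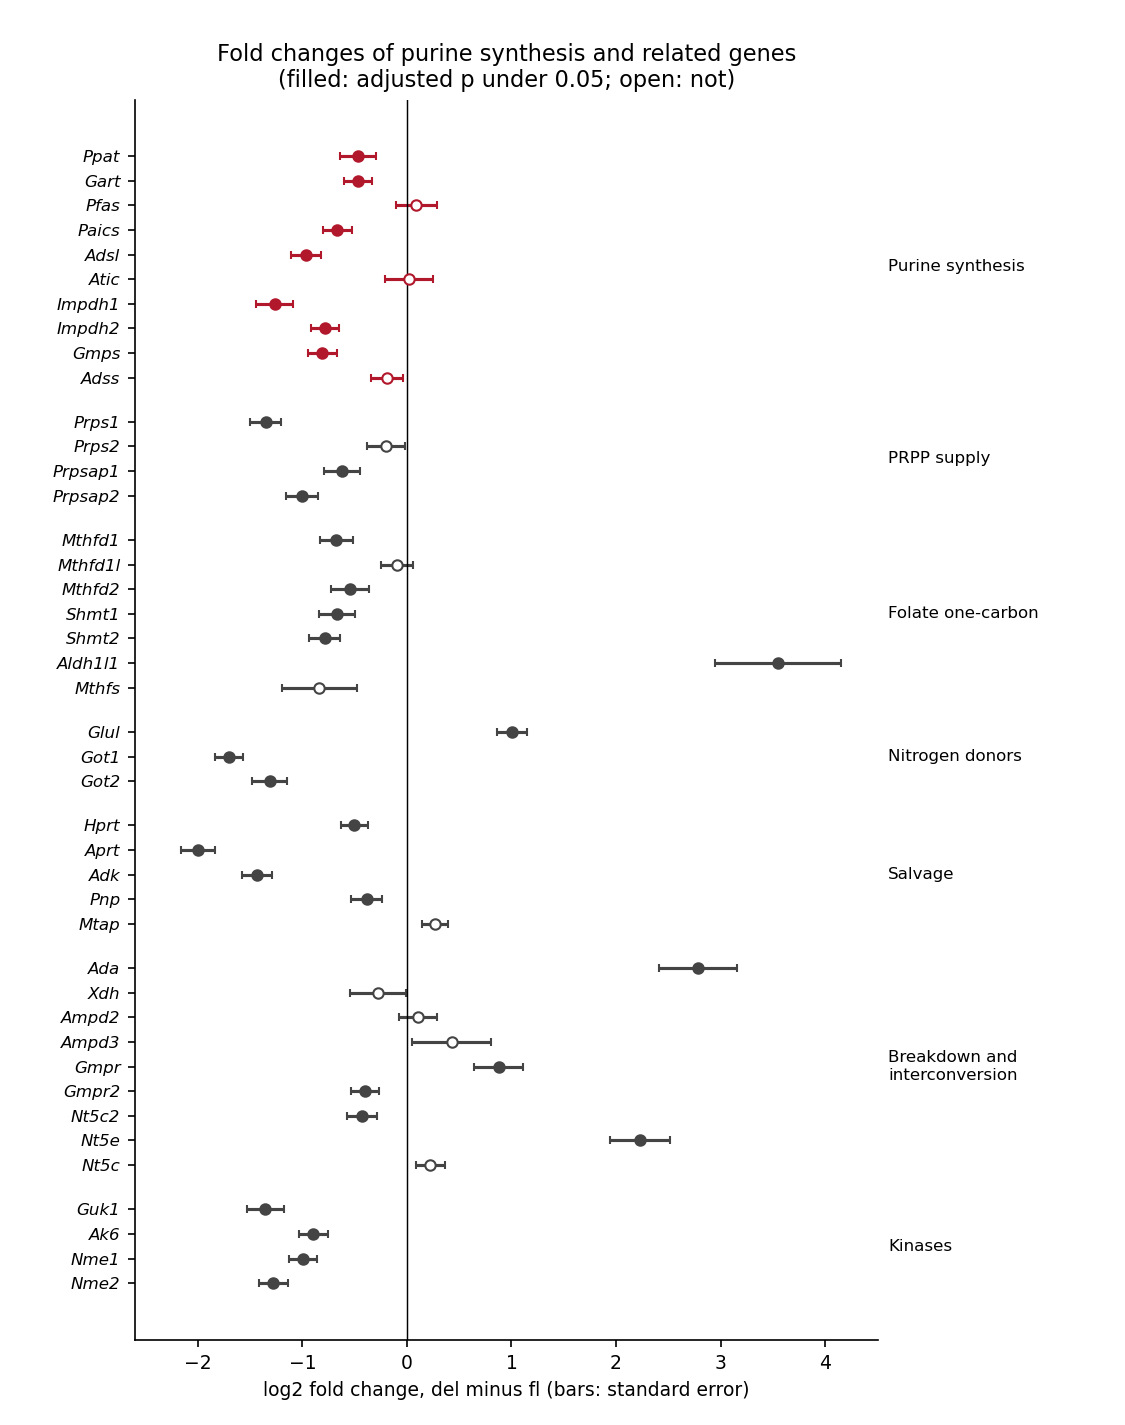
Log2 fold changes (del minus fl) with standard errors for the purine synthesis enzymes (red) and for related genes by role (grey), filled where the adjusted p was under 0.05. Synthesis, PRPP, salvage and kinase genes lie mostly left of 0, and Aldh1l1 at 3.55, Ada at 2.78 and Nt5e at 2.23 lie farthest right.

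Purine demand follows DNA replication and growth, so genes of proliferation were set beside the enzymes. Of 8 such genes 3 rose and 4 fell (median -0.24), where 32.5% of all genes tested rose and 32.6% fell. Mki67, Top2a and Mcm3 rose, with log2 fold changes of 2.10, 1.35 and 1.22 (1.28, 0.89 and 1.28 after removal of the length and GC trend). Ccnb1, Cdk1 and Mcm5 fell, at -1.57, -1.18 and -0.63. Pcna fell at -0.37, a call kept in only 7 of 15 other settings of the fit. With the length and GC trend taken out Pcna was at 0.062 (adjusted p = 0.719). Mcm2 was not called (-0.11, adjusted p = 0.588). The part of proliferation in the fall of the purine genes was not tested.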

How the data were processed

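Per the labels' protocols, oligo-dT primers with a barcode started cDNA synthesis, and the pooled cDNA gave strand-specific 3′ libraries. The authors deposited raw read counts per gene for 6 libraries. Per the submitters' processing notes, the tools were STAR and HTSeq and the build was mm10. Their versions and settings were not stated. Symbols came from the RefSeq table of GRCm38, which matched 23969 of 24052 gene numbers. A further 833 rows had no gene number, and all rows stayed in the table.

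Counts were compared with edgeR 4.0.16 (filterByExpr, TMM, robust quasi-likelihood F test, group as the only term) and adjusted by Benjamini-Hochberg over 10260 genes. CPM were computed from the counts, and standard errors from the F statistic. The fit was also run on simulated counts in which few genes changed. In the real data 65.1% of genes tested were called, so that run does not check the scaling here. Alternatives were other scaling factors, other count filters, DESeq2 1.42.0, thinning to the smallest library, leaving out each library, the replicate number as a block, and removal of the trend on length and GC content of the longest GENCODE transcript. The trend on length and GC was fitted to the del minus fl fold changes themselves, so its removal may also take out real differences. Ratios were tested by exact permutation. Members and lists were chosen with earlier results of these data known, and every listed gene could be named. Some genes of these lists are not reported here.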

Additional observations from a re-analysis of the deposited data

How the results depend on the processing

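The count of members lower in del was 7 in the reported test and 5 to 7 over 15 alternatives, and 0 were higher in each. The count over all genes was 5488 to 7286. Adsl, Impdh1, Gmps and Paics were called under every alternative. For Ppat the log2 fold change was -0.43 with library totals alone and -0.41 in thinned libraries, both short of the threshold, and -0.66 to -0.37 without single libraries. Gart ranged from -0.56 to -0.41 without single libraries. Impdh2 was at -0.31 with the length and GC trend removed and short of the threshold. The sign changed for some genes, all but Pcna being uncalled in either setting. Pfas was at -0.041 with upper-quartile factors, at -0.26 with the trend removed and at -0.065 to 0.24 without single libraries. Atic was at -0.11 with upper-quartile factors, at -0.027 with no count filter and at -0.19 to 0.19 without single libraries. Outside the members, Ampd2 was at -0.023 with upper-quartile factors and -0.080 to 0.22 without single libraries. With the trend removed Adssl1 was at 0.45, Myc at 0.20 and Pcna, called before, at 0.062 (adjusted p = 0.719). Without single libraries Mthfd1l ranged from -0.19 to 0.018, Mcm2 from -0.24 to 0.028, Adssl1 from -0.52 to 0.12 and the Paics per Ppat log2 difference from -0.37 to 0.047. Upper-quartile factors moved the median of all genes by -0.13. With the trend removed Ppat was at -0.75. The cause of these changes was not tested.

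No pairing of the libraries by replicate number was evident (correlation of same-numbered deviations 0.083, -0.039 and -0.020). With the replicate block 6510 genes were called, and 7 members were lower. For the members the block changed no call, with log2 fold changes of -0.48 for Ppat, -0.46 for Gart, 0.10 for Pfas, -0.67 for Paics, -0.98 for Adsl, 0.01 for Atic, -1.28 for Impdh1, -0.78 for Impdh2, -0.82 for Gmps and -0.20 for Adss. Of the related genes, Pnp and Pcna were not called with the block. Over related genes and alternatives, 580 values kept direction and side of the threshold, 39 fell short of it, 5 came past it and 8 changed sign. Read counts were lowest for Impdh1 and Pfas, at 21 and 67 reads in their shallowest library.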
